A study of Rattus norvegicus with 4 samples.

Results

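The genes described here build the elastic fibre and its microfibrils. They were chosen as a list of 10 gene symbols, and a member was measured where a probe set of the array's platform table carried its symbol alone. By that rule 6 of the 10 were measured, with 1 probe set each: Eln, Fbn1, Fbn2, Fbln5, Mfap2 and Mfap5. Fbln1, Fbln2, Mfap4 and Emilin1 had no such probe set and were not analysed here. The whole table held 14824 probe sets of this kind, for 14557 genes.

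Elastic fibres let a tissue recoil after stretch. They consist of a core of cross-linked elastin on a scaffold of microfibrils, whose backbone is fibrillin. Small glycoproteins sit on the fibrillin, fibulins help elastin settle on the scaffold, and lysyl oxidases cross-link it. In tendon the fibres lie between collagen fascicles and around the cells, and microfibrils also hold latent TGF-beta in the matrix.

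The cells were fibroblasts from the tail tendons of Lewis rats described as retired breeders, held in a three-dimensional gel of type I collagen. All cultures spent 2 days in DMEM with 10% fetal bovine serum and 1% antibiotic and antimycotic, and were then given DMEM with 1% of the same drugs and 10% clot releasate of PRP or of PPP for 24 hours. PRP and PPP are taken to stand for platelet-rich and platelet-poor plasma, which the labels do not spell out, and the source of the plasma is not stated there. The comparison of 2 PRP with 2 PPP arrays asks how the transcripts of these cells differ between both releasates. No untreated arrays were analysed here, so a difference does not say which releasate moved a gene. Nothing in the labels says that the numbered replicates were separate animals or cultures, so a p-value covers only array-to-array spread, which may be technical in origin. Levels are the deposited log2 values. The submitters' processing notes name RMA, an array method that evens out the distributions of the arrays and summarises the probes of each probe set, without saying which step it served, and the sorted values of the deposited arrays differed by up to 0.304. A difference is log2 PRP minus PPP, a level is given as mean ± SD of the 2 arrays, and a call is an adjusted p below 0.05 by limma over all 14824 probe sets. Rose and fell are used of called genes that were higher or lower with PRP than with PPP.

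Mfap5 fell with PRP and was the one member past the threshold. It encodes MAGP-2, a small microfibril glycoprotein that binds fibrillin. Fbn1 and Fbln5 also lay lower with PRP on both arrays, Fbn2 lay higher on both, and none of these 3 passed. Eln and Mfap2 overlapped between the treatments. Of all probe sets tested, 1.85% were called, 1.02% lower and 0.83% higher, against 1 of the 6 members. The groups did not overlap in 4 of the 6 members and in 46.4% of all probe sets. The median difference of the 6 members was -0.34 on the log2 scale, beside -0.00266 for all probe sets. In a culture measured as a whole, fewer cells of a type and less RNA per cell cannot be told apart.

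**Figure D1:**
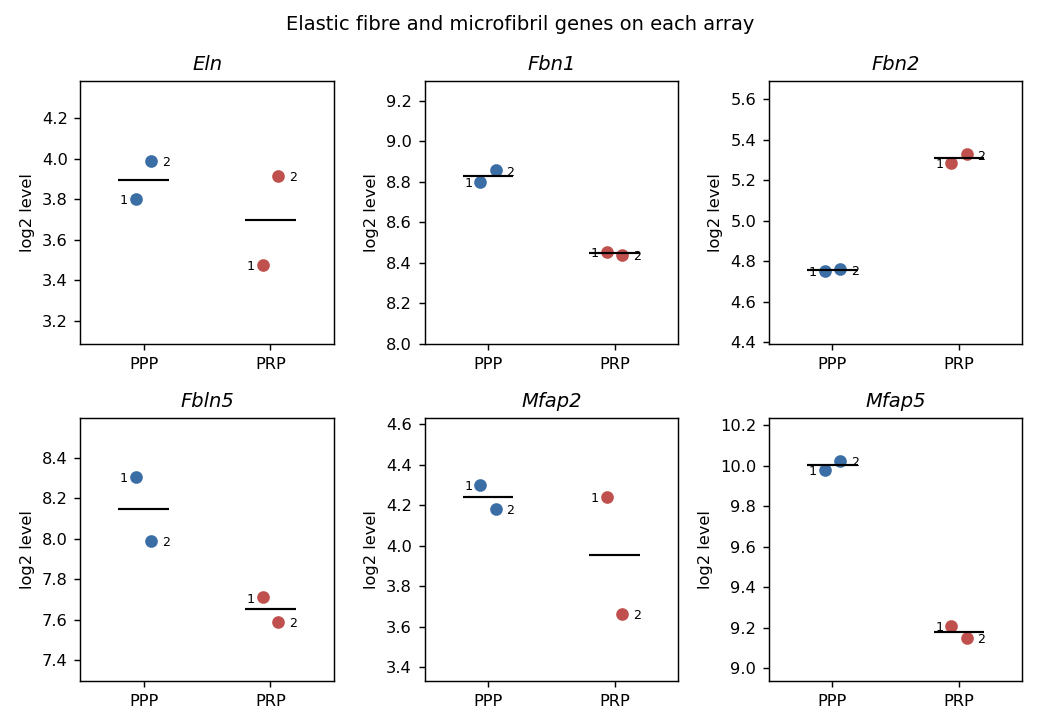
Deposited log2 level of each measured member on the 2 PPP and 2 PRP arrays, with each point numbered by replicate and a bar at the group mean; every panel spans the same log2 range around its own centre. Mfap5, Fbn1 and Fbln5 lie lower on both PRP arrays and Fbn2 higher, while the points of Eln and Mfap2 overlap.

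The log2 level of Mfap5 was 9.98 and 10.02 on the PPP arrays and 9.21 and 9.15 on the PRP arrays. Both PRP arrays lay below both PPP arrays, and the gap between the arrays of one treatment was at most 0.0599. The mean was 10.00 ± 0.03 for PPP and 9.18 ± 0.04 for PRP (SD, n = 2 arrays per treatment). The difference was -0.82 (SE 0.10), a 1.77-fold lower level with PRP, with an adjusted p of 0.0233 by limma and a 95% interval from -1.08 to -0.57. Its size exceeded that of 98.2% of all probe sets. Leaving out any 1 array ended the call (adjusted p 0.106 to 0.188), as did a fit of all 36685 probe sets of the table (0.180), while the difference stayed between -0.85 and -0.79 over 12 alternatives whose adjusted p ran from 0.000129 to 0.188.

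The other small microfibril glycoprotein measured was Mfap2, which encodes MAGP-1 and shares with MAGP-2 a region that binds matrix. On the log2 scale the PPP arrays read 4.30 and 4.18 and the PRP arrays 4.24 and 3.66. The second PRP array stood below the other arrays, and the first lay between the PPP arrays. The difference of -0.29 (SE 0.20) did not pass (adjusted p 0.544 by limma), and its 95% interval ran from -0.78 to 0.20. Without PRP replicate 2 the difference was -0.00075, and without PRP replicate 1 it was -0.58. The mean level of Mfap2, 4.10, was close to the median of all probe sets, 4.11, a level at which signal and background cannot be separated here.

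The log2 ratio of Mfap2 to Mfap5 was -5.68 and -5.84 on the PPP arrays and -4.97 and -5.49 on the PRP arrays, higher on both PRP arrays by a mean of 0.53. A ratio of 2 probe sets is read only as a change between arrays and not as a ratio of transcripts. The exact permutation test over arrays gave p = 0.333, two-sided, and 0.333 after adjustment over the 2 pairs of related members that were compared. With 2 arrays against 2 this is the smallest p the test can give, so the ratio could not pass. The mean ratio difference was 0.28 without PRP replicate 1 and 0.79 without PRP replicate 2. Because Mfap2 lay where signal and background cannot be separated, this ratio adds nothing firm to the difference of Mfap5 alone.

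The fibrillins are large glycoproteins that polymerise into the microfibril backbone. Fibrillin-1, encoded by Fbn1, predominates after birth, and fibrillin-2, encoded by Fbn2, is best known from development. The log2 level of Fbn1 was 8.80 and 8.86 with PPP and 8.45 and 8.44 with PRP. Both PRP arrays were below both PPP arrays. The difference was -0.38 (SE 0.10), or 1.30-fold lower with PRP, with an unadjusted p of 0.0108 that became 0.167 after adjustment by limma, so Fbn1 did not pass. Its 95% interval, which covers this probe set alone, ran from -0.64 to -0.13.

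Fbn2 differed in the opposite direction. Its log2 level was 4.75 and 4.76 with PPP and 5.29 and 5.33 with PRP. Both PRP arrays were above both PPP arrays, and the gap between arrays of one treatment was at most 0.0415. The difference of 0.55 (SE 0.10), or 1.47-fold higher with PRP, missed the threshold with an adjusted p of 0.0720 by limma, and its 95% interval ran from 0.30 to 0.81. It passed with the arrays centred on their medians (adjusted p 0.0491) and with an intensity trend in limma (0.0460), and over 12 alternatives the adjusted p ran from 0.0460 to 0.356. With the trend Fbn1 passed as well (0.0143, range 0.0143 to 0.512).

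The log2 ratio of Fbn1 to Fbn2 was 4.05 and 4.10 on the PPP arrays and 3.17 and 3.11 on the PRP arrays. It was lower on both PRP arrays, by 0.93 on average with SDs of 0.03 and 0.04, a 1.91-fold change of the ratio between treatments. The PPP level of Fbn2, 4.75, was not far above the median of all probe sets, 4.11, and detection calls were not used. Part of the Fbn2 signal in this ratio may therefore be background. The exact permutation test gave p = 0.333, two-sided, again the smallest it allows with 2 arrays against 2, and 0.333 after adjustment over the 2 pairs. The ratio difference was between -0.96 and -0.91 whichever array was left out. Mfap5 and Fbn2 had the largest difference in each direction, and their promoters are shown for that reason, with that of Fbn1 as the relative of Fbn2. Each runs from 250 bases before the RefSeq start to 50 after it, 5′ to 3′ on the strand of the gene in the GRCr8 build. Capitals mark the motifs found by the search described next. In the Fbn1 and Fbn2 windows the 50 bases after the start open with atg, the letters of a start codon. There the start may be that of the coding sequence and not of the transcript, so these 2 windows need not hold the promoter. The Mfap5 window is chr4:157399669-157399968 (plus strand), that of Fbn1 is chr3:133203341-133203640 (minus strand) and that of Fbn2 is chr18:53901943-53902242 (minus strand).
Mfap5: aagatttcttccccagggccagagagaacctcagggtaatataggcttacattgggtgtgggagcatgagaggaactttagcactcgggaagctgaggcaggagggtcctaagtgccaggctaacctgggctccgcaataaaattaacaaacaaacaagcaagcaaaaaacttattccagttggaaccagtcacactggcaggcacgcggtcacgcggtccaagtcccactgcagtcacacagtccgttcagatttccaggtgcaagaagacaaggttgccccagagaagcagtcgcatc
Fbn1: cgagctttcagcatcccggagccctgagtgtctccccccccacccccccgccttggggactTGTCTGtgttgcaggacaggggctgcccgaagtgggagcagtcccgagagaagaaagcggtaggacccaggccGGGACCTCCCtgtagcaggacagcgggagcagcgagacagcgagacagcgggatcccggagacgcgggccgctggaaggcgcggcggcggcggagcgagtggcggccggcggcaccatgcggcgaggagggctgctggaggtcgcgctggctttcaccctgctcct
Fbn2: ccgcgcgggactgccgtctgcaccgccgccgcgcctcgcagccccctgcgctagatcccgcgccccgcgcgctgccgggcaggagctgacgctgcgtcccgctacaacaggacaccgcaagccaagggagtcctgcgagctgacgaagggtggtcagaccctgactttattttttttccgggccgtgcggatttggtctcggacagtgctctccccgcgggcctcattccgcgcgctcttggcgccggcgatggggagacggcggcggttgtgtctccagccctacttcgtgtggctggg

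The promoter windows of 5 measured members were searched on both strands for 6 motifs. The AP-1 motif was taken as TGACTCA. For the promoter element known as the GC box the letters sought were GGGCGG. The TATA element was read as TATAAA. For the Smads, which carry the signal of TGF-beta receptors to DNA, the letters sought were CAGACA. The CArG box, bound by serum response factor, and the NF-kB site were matched by their usual consensus. The Fbn1 window held 1 Smad motif on the minus strand, at bases -189 to -184 (the base before the start is -1). It also held 1 NF-kB site at -116 to -107, where both strands match the consensus. Of 27457 rat promoters of 300 bases, 20.8% held that Smad motif and 7.60% an NF-kB site. The Fbln5 and Mfap2 windows each held 1 GC box, as did 34.9% of all promoters. None of the 6 motifs was found in the Mfap5 or Fbn2 window, which says only that these letters are not there. AP-1, TATA and CArG matches, found in 4.53%, 14.3% and 1.64% of all promoters, were in none of the 5. No 2 of these matches overlapped.

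The members' promoter windows differed in base composition. The Mfap5 window was 51.7% G and C with 8 CpG dinucleotides, near the median of 52.3% over all promoters. Those of Fbn1 and Fbn2 were 70.7% and 69.3% with 28 and 38 CpG dinucleotides, above 92.1% and 90.3% of all promoters. Mfap2 stood at 67.0% and Fbln5 at 58.3%. Among these 5 the member that fell had the lowest share of G and C, a description over 5 sequences with no test. Because the Fbn1 and Fbn2 windows may be placed at a start codon, the 5 windows need not be like regions.

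Eln encodes tropoelastin, the soluble monomer from which the elastic core is built. Its log2 level was 3.80 and 3.99 with PPP and 3.48 and 3.92 with PRP. The second PRP array lay between the PPP arrays, so the groups overlapped, and the gap of 0.439 between the PRP arrays was larger than the difference. That difference was -0.20 (SE 0.17, adjusted p 0.634 by limma), with a 95% interval from -0.63 to 0.23, and it was 0.019 without PRP replicate 1. The mean level, 3.80, was below the median of all probe sets, where signal and background cannot be separated, and a missing call therefore says little about elastin.

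Fbln5 encodes fibulin-5, which binds tropoelastin, lysyl oxidase-like 1 and integrins and is needed for elastic fibre assembly in mice. Its log2 level was 8.30 and 7.99 with PPP and 7.71 and 7.59 with PRP. The PRP arrays were both lower, although the gap between the PPP arrays, 0.316, was wide. The difference of -0.50 (SE 0.14), 1.41-fold lower with PRP, did not pass (unadjusted p 0.0135, adjusted p 0.186 by limma). Without PPP replicate 1 it was -0.34 and without PPP replicate 2 it was -0.65. With an intensity trend Fbln5 passed (adjusted p 0.0369, range 0.0369 to 0.533 over 12 alternatives).

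**Figure D2:**
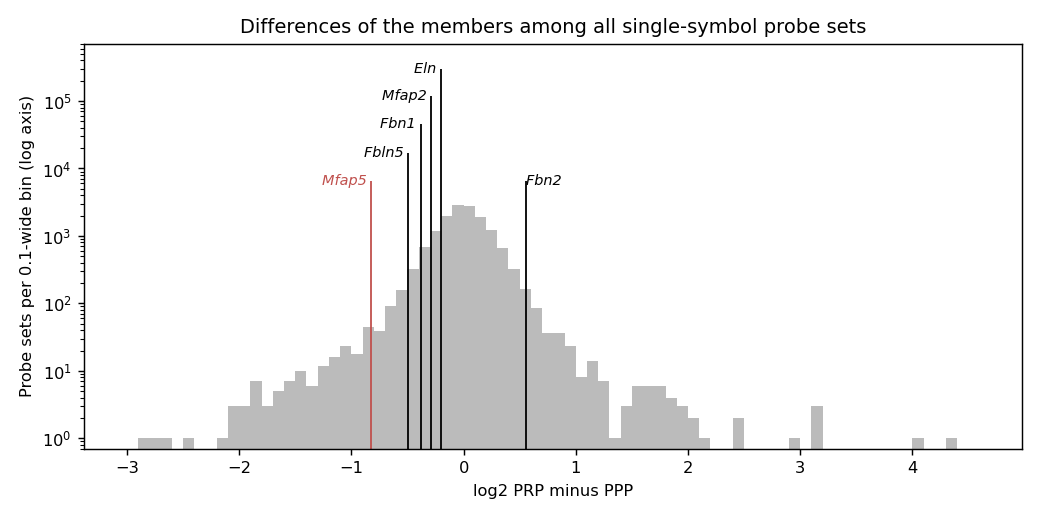
Histogram of the log2 PRP minus PPP difference of all 14824 probe sets in bins 0.1 wide, with the number of probe sets on a log axis, and a line for each measured member (red where called; line heights only keep the labels apart). Mfap5 at -0.82 lies in the lower tail and Fbn2 at 0.55 in the upper tail, while Eln at -0.20 lies within the bulk.

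The sizes of the 6 differences covered a wide part of the table. The difference of Fbn2 was larger in size than 95.4% of all probe sets, that of Fbln5 than 94.0%, that of Fbn1 than 88.6%, that of Mfap2 than 79.5% and that of Eln than 64.6%. Of the 6 differences 5 were negative, all but that of Fbn2, and 7509 of all 14824 probe sets had a negative difference.

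The genes whose pattern over the 4 arrays lay closest to that of Mfap5 were sought among 7228 genes outside the lists with a mean above the median. The measure was the Euclidean distance between values after each gene's own mean was taken off. Postn, the matricellular protein periostin, was nearest at a distance of 0.0360, with a difference of -0.79 (adjusted p 0.0274 by limma). Its log2 values were 10.17 and 10.21 with PPP and 9.44 and 9.35 with PRP. Aldh1l2, a mitochondrial folate enzyme, followed at 0.0564 and Mid1, a ubiquitin ligase bound to microtubules, at 0.0607. With 4 arrays in 2 groups this likeness reflects little more than a difference of like size.

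Beside the members, 50 other genes of elastic fibre assembly and turnover were listed in 9 groups, and 33 of them were measured. Of the 33, 1 rose, 1 fell and 31 did not pass, where 1.85% of all probe sets were called. Negative differences were 22 and positive ones 11, with a median of -0.06. The groups did not overlap in 20 of the 33, 15 of them lower with PRP and 5 higher, against 22.5% lower and 23.9% higher among all probe sets.

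The gene that rose was Mmp9, a gelatinase that also cuts elastin. The log2 level of Mmp9 was 3.13 on both PPP arrays, where the values were identical, and 5.57 and 5.53 on the PRP arrays. The PPP level was low, and signal and background cannot be separated there. The measured difference was 2.42 (SE 0.10, adjusted p 0.00122 by limma), which would understate the change if the PPP level is background. It kept its call without each array, but not when all 36685 probe sets were fitted (adjusted p 0.0597, range 4.14e-05 to 0.0597). Of the other 5 enzymes that cut elastin 0 passed by limma, with 1 at an unadjusted p below 0.05. That one was Ctsk, the cathepsin K of bone and fibroblasts and the one with the largest negative difference, -0.34 (adjusted p 0.248).

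The gene that fell was Itga8, the integrin alpha 8 subunit, which pairs with beta 1 to bind RGD motifs in the matrix. Its arrays read 7.84 and 7.65 with PPP and 6.61 and 6.71 with PRP on the log2 scale, with no overlap. The difference was -1.08 (SE 0.12), with an adjusted p of 0.0143 by limma that rose to between 0.0618 and 0.119 with 1 array left out. The call also ended in the fit of all 36685 probe sets (0.156). Of the other 3 measured integrin subunits 0 passed by limma, and 0 had an unadjusted p below 0.05. Itga5 of the fibronectin receptor had the largest positive difference at 0.30 (adjusted p 0.374).

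Proteins that escort and process elastin and fibrillin before assembly had a median difference of -0.35 over 4 measured genes, and 0 passed by limma at an adjusted p of 0.05, with 3 at an unadjusted p below 0.05. Fkbp10, a chaperone of the endoplasmic reticulum for tropoelastin and procollagen, had PPP values of 8.76 and 8.65 and PRP values of 8.12 and 7.93 on the log2 scale. Its arrays did not overlap, and the difference of -0.68 (SE 0.12) narrowly missed the threshold with an adjusted p of 0.0647. It passed after cyclic loess (0.0444), without the dimmest 25% of probe sets (0.0497) and with an intensity trend (0.00261), within a range of 0.00261 to 0.331. Furin, the protease that trims profibrillin, was at 0.13 (adjusted p 0.608).

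Among the 5 lysyl oxidases, which cross-link elastin and collagen, 0 passed by limma, with 1 at an unadjusted p below 0.05. Loxl2 was that one, with PPP values of 7.75 and 7.43 and PRP values of 6.98 and 6.80 on the log2 scale. The difference was -0.70 (SE 0.15) with an adjusted p of 0.102, and Loxl2 passed with an intensity trend (0.0129, range 0.0129 to 0.405). Lox itself was at 0.07, with a 95% interval from -0.19 to 0.32, and Loxl1, the family member most tied to elastin, was at 0.15, with an interval from -0.18 to 0.48. Neither difference passed (adjusted p 0.814 and 0.651 by limma).

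The fibulin relatives, latent TGF-beta binding proteins, emilin and multimerin relatives and fibrillin-binding ADAMTS proteins had 0 calls by limma among 3, 2, 3 and 3 measured genes, and 1 of these genes had an unadjusted p below 0.05. That gene was Efemp2, the fibulin-4 that brings lysyl oxidase to elastin, at -0.37 (SE 0.13, adjusted p 0.250), which passed with the trend (0.0476, range 0.0476 to 0.609). Its relative Efemp1 was at 0.13 (adjusted p 0.703). Ltbp2 and Ltbp3, which share domains with fibrillin, were at 0.15 and -0.25. Mmrn1 and Mmrn2 of the multimerins were at 0.09 and -0.19, and Adamtsl2 and Adamtsl4, which bind fibrillin-1, at 0.01 and -0.35. Of 3 measured proteins that lie on microfibrils or beside them 0 passed by limma, with 1 at an unadjusted p below 0.05. This was Dcn, the proteoglycan decorin, with a positive difference of 0.56 (SE 0.10, adjusted p 0.0709), which passed with median centring (0.0491) and with the trend (0.00102), within a range of 0.00102 to 0.343. Bgn, its relative biglycan, was at -0.15.

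**Figure D3:**
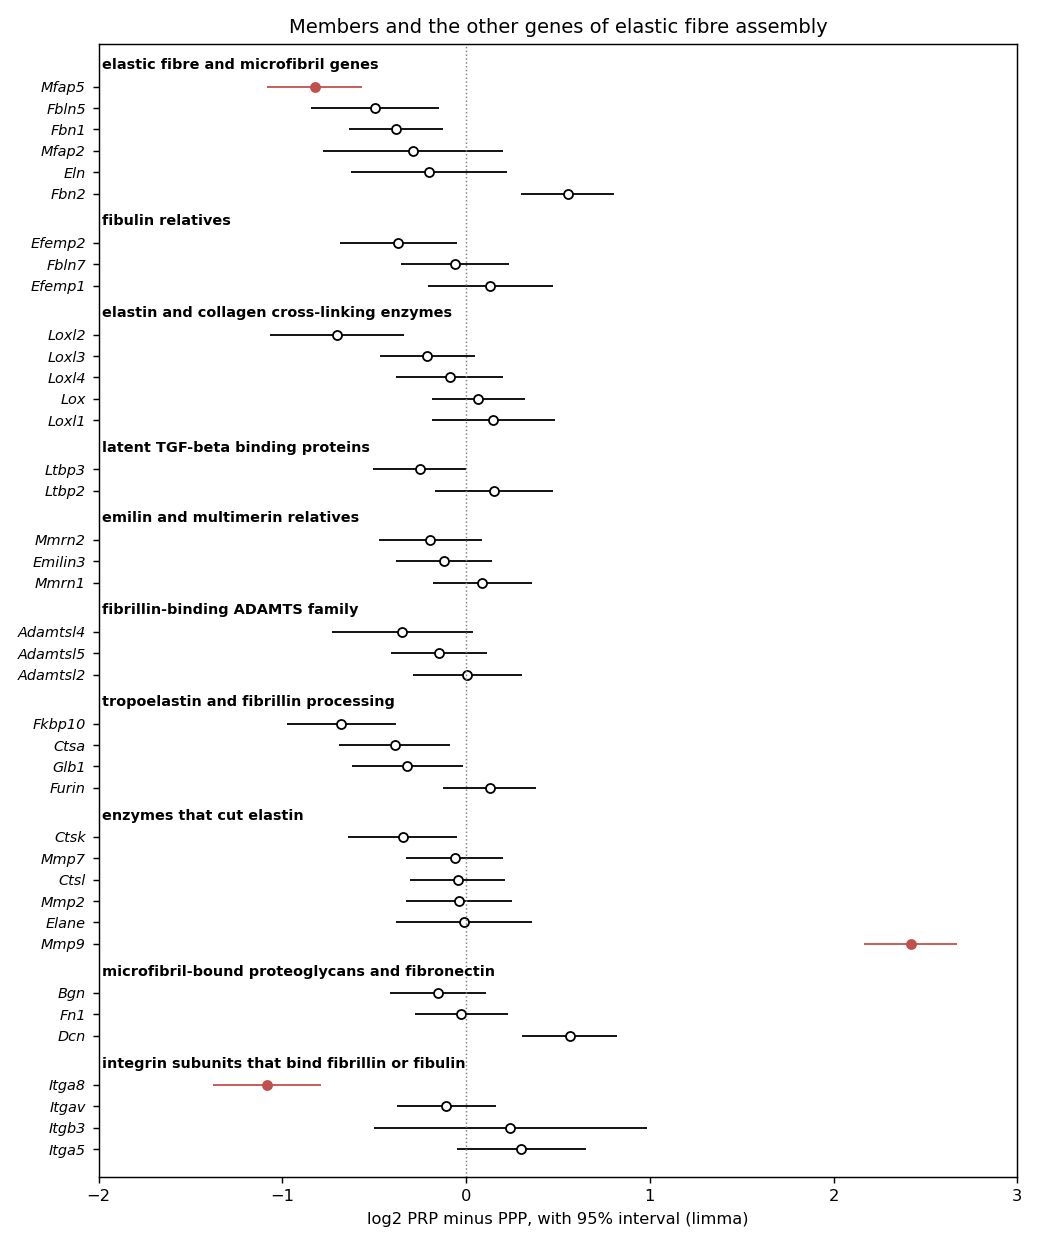
Log2 PRP minus PPP difference of the 6 measured members and of the 33 other measured genes of elastic fibre assembly by group, with limma's 95% interval for each probe set alone. Filled red points mark the calls, Mfap5, Mmp9 and Itga8, and open points the genes that did not pass.

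Markers of the labelled cells and of others were read from the same fit. Of 11 measured tendon fibroblast markers 10 lay above the median level of all probe sets, all but Tnmd, and 2 fell (Fmod and Tnmd). Over the 11 the difference was negative in 8 and positive in 3, with a median of -0.53. The groups did not overlap in 8 that were lower with PRP and 2 that were higher, against 22.5% and 23.9% of all probe sets. Of 5 measured smooth muscle and pericyte markers 3 were called lower, as Mfap5 was, where 1.02% of all probe sets were called lower. Notch3 and Des did not pass. The log2 differences of these 3, Actg2, Lmod1 and Mcam, were -1.60, -1.53 and -1.27, and Mcam averaged 4.23, near the median of all probe sets. The mean log2 level over the 5 was 5.65 to 5.72 on the PPP arrays and 4.73 to 4.80 on the PRP arrays, and the other 4 of the list were not analysed here. The desmin gene Des was near 3 on every array, a level at which signal and background cannot be separated. Smooth muscle cells and contractile fibroblasts also express microfibril genes, and the part of such cells in the fall of Mfap5 was not tested. Calls among 6 endothelial, 8 leukocyte and 3 chondrocyte markers were 0 by limma, with 2, 2 and 1 at an unadjusted p below 0.05. Of 3 measured platelet markers 1 rose, Pf4, where 0.83% of all probe sets were called higher. Its log2 level was 3.79 and 3.56 with PPP and 5.62 and 5.43 with PRP. The PPP values lay below the median of all probe sets, where signal and background cannot be separated. Gp9 and Ppbp, with differences of 0.03 and -0.16, did not pass.

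The count of members called moved with the processing, beside the share of all probe sets called by the same fit. Median centring called 2 members where 2.52% of all probe sets were called, and an intensity trend called 4 where 5.45% were. Cyclic loess (2.14%), robust eBayes (1.76%), leaving out the dimmest 25% of probe sets (3.04%) and the mean of each gene's probe sets (1.86%) each called Mfap5 alone. No member was called by limma with all probe sets of the table fitted (0.00545% of them called) or without PPP replicate 1 (0.378%), PPP replicate 2 (0.486%), PRP replicate 1 (0.546%) or PRP replicate 2 (0.452%). In these 5 fits 2 to 4 members had an unadjusted p below 0.05. The remaining alternative, a fit with the replicate number as a block, is given with the processing settings in the closing section.

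**Figure D4:**
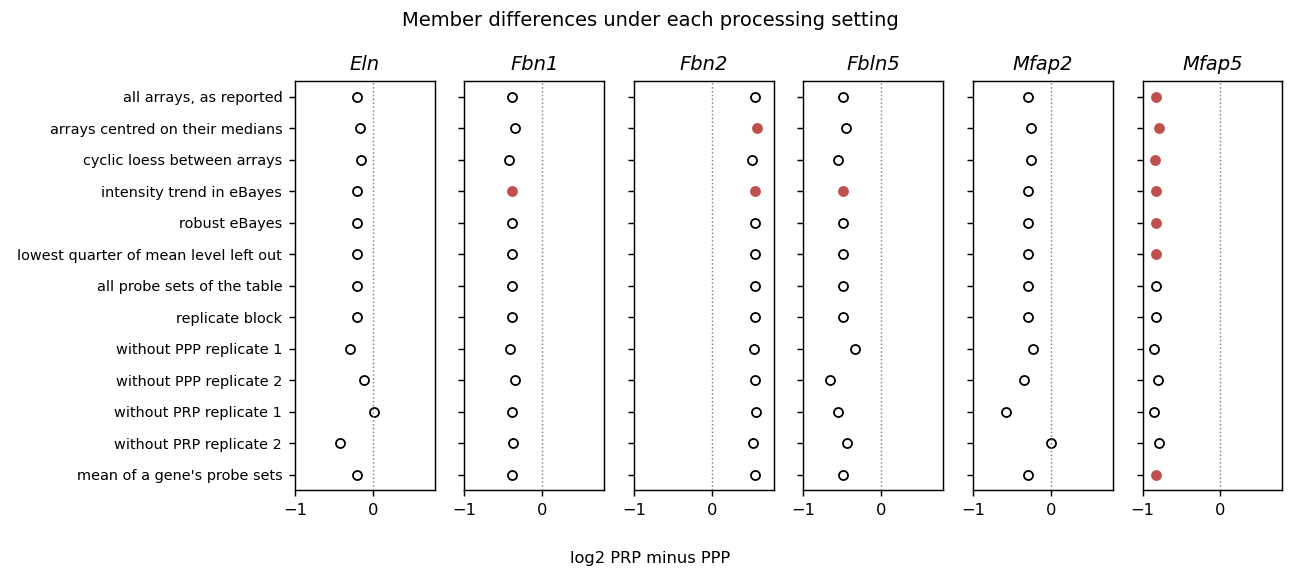
Log2 PRP minus PPP difference of each measured member as reported and under 12 other processing settings, with red filled points where the adjusted p was below 0.05. Mfap5 stays near -0.82 whether called or not, Fbn2 stays above 0, and Eln and Mfap2 reach 0.019 and -0.00075 with 1 PRP array left out.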

How the data were processed

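Expression was measured on 4 Affymetrix arrays, 2 per treatment. The deposited values are log2 levels per probe set, and the submitters' processing notes name oligo, RMA and limma with no version, role or order. They ran from 0.861 to 12.3. The labelling started from 15 ng of total RNA, per the labels' protocols. The genome build behind the array was not given in the sources used here. Detection calls were not used, so low levels may be background. Arrays have no read depth, and their number limits the precision.

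The treatments were compared in R 4.3.3 with limma 3.58.1 (lmFit, then eBayes without trend or filter, two-sided) over the 14824 probe sets with 1 gene symbol, with Benjamini-Hochberg adjustment. The fit had 2 residual and 3.87 prior degrees of freedom. The same fit was run on simulated data with changes larger than those of the members and variances more alike across probe sets. That run checked the code only and does not cover differences of the members' size. Of 7 planned pairs of related members, the 2 with both genes measured were compared by exact permutation. Settings tried are in the closing section. Members and lists were chosen with earlier results of these data known. Named were all measured members, the called genes of each list and its gene with the smallest p and the largest difference each way, and 3 genes nearest in pattern to the called member. The Fbn1 promoter and the Lox, Fmod, Tnmd, Des, Pf4, Gp9, Ppbp, Actg2, Lmod1 and Mcam values were added after values were seen. The planned rule for promoters covered only those of Mfap5 and Fbn2. The motif search and base composition of the Fbn1, Fbln5 and Mfap2 windows fall outside it. Promoters came from RefSeq (GRCr8): 5 of the 6 measured members matched, and Eln is named only.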

Additional observations from a re-analysis of the deposited data

How the results depend on the processing

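Counts of calls depended on the fit. Over all probe sets 274 were called, 808 with an intensity trend, 123 with a replicate block, 2 when all 36685 probe sets were fitted and 56 to 81 with 1 array left out. Members called were 1 as reported, 2 with median centring (Mfap5 and Fbn2) and 4 with the trend (also Fbn1 and Fbln5). They were 0 by limma with the replicate block (4 at an unadjusted p below 0.05), with all 36685 probe sets (4), and with any 1 array left out, 0 to 0 (2 to 4). Other pathway genes called were 2 as reported, 7 with the trend (Mmp9, Itga8, Fkbp10, Loxl2, Efemp2, Ctsa and Dcn), 0 with all 36685 probe sets (6 at an unadjusted p below 0.05), 1 with the replicate block and 1 to 1 with 1 array left out. Cyclic loess, robust eBayes, leaving out the dimmest 25% of probe sets and averaging a gene's probe sets kept the count of members at 1. The other pathway genes called were 3 with median centring, with cyclic loess and without the dimmest 25%. They were 2 with robust eBayes and with averaged probe sets.

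The replicate numbers were not taken to pair the arrays, since the labels give only numbers and the deviations of same-numbered arrays correlated at r = 0.00564 across probe sets. With the replicate block Mfap5 kept its difference of -0.82 and had an adjusted p of 0.0841, and Itga8 lost its call as well (adjusted p 0.0647). The difference of Eln, with 1 array left out, ran from -0.42 to 0.019, the latter without PRP replicate 1. Those of the other 5 members kept their sign under all 12 alternatives, though that of Mfap2 was only -0.00075 without PRP replicate 2. Leaving out 1 array left 1 residual degree of freedom, and such a fit took the lone array to vary like the other group. Centring on medians moved the median difference of all probe sets to 0.03. The cause of these changes was not tested.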
